A study of Homo sapiens with 5 samples.

Results

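The nuclear-encoded subunits of oxidative phosphorylation were followed at the mRNA level in HEK293 cells, a human embryonic kidney line, after knockdown of either microRNA-processing nuclease. Genes were taken by symbol: NDUFA, NDUFB, NDUFC, NDUFS and NDUFV genes, SDHA to SDHD, UQCR genes, COX4 to COX8 genes and ATP5 genes. Of 87 matching symbols, 77 reached at least 1 CPM (read counts scaled to the library total) in 2 or more libraries, out of 12234 genes that passed this filter and 18257 in the table. They comprise 36 genes of complex I, 4 of complex II, 8 of complex III, 12 of complex IV and 15 of complex V. The other 2, ATP5S and ATP5SL, match by symbol but encode no subunit and are left out of the values per complex. NDUFA4 is counted with complex IV, where its protein is now placed. The 10 symbols that did not pass were COX4I2, COX6A2, COX6B2, COX7A1, COX7B2, COX8C, NDUFA4L2, ATP5L2 and the readthrough genes ATP5J2-PTCD1 and NDUFC2-KCTD14.

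Oxidative phosphorylation takes place in the inner mitochondrial membrane. Complex I (NADH dehydrogenase) and complex II (succinate dehydrogenase) pass electrons to ubiquinone, complex III passes them to cytochrome c, and complex IV (cytochrome c oxidase) passes them to oxygen. Complexes I, III and IV pump protons, and complex V (ATP synthase) uses the returning protons to make ATP. Most subunits are encoded in the nucleus, the mitochondrial genome encodes the rest, and the factors NRF1 and GABP (an ETS-family factor) are known regulators of many of the nuclear genes. DICER1 cuts microRNA precursors in the cytoplasm, and DROSHA makes those precursors in the nucleus.

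All 5 libraries came from the line labelled HEK293 T-Rex FLAG:DICER1 FLP-IN, so the control cells also carry the tagged DICER1 insert. Poly(A) RNA was sequenced 18 h after transfection from 1 control (mock) library, 2 DICER1 siRNA libraries and 2 DROSHA siRNA libraries. Each siRNA library used a different siRNA, and separate cultures are not named in the labels. The spread behind each p-value therefore includes differences between the siRNAs, and the rest of it may be technical. The submitters set DICER1 knockdown against DROSHA knockdown and the mock to ask how Dicer binding relates to gene regulation.

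Total counts lay between 7620206 and 8736455. DICER1 mRNA was at 29.2% of the mock level in the DICER1 siRNA libraries and DROSHA mRNA at 21.7% in the DROSHA siRNA libraries (adjusted p = 0.0260 and 0.000882, edgeR quasi-likelihood test). Of 5 genes known in this line, 4 (LIN28B, PAX2, VIM and CDH2) were above 1 CPM in every library, and 16 markers of blood, endothelium, liver, fibroblasts and muscle summed to between 8.80 and 10.7 CPM, with COL1A1 and ACTA1 alone reaching 1 CPM and PTPRC, COL1A2, DCN and TNNT2 at 0. Library DROSHA siRNA 2 stood apart. Its chi-square statistic per degree of freedom against each other library, over 11931 genes, was between 7.35 and 9.49, while the other pairs gave between 2.62 and 5.8. The medians over subunit genes in both comparisons of DROSHA knockdown, and the genes that differ in this library, are given with and without it.

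In the mock library the subunit mRNAs were abundant for their length. CPM were scaled to effective library size and divided by the kilobases of the longest transcript of each gene, which gave a median level of 87.1 CPM per kb over the 77 genes against 10.6 over all tested genes. Of the 77, 73 lay above the median of all tested genes and 48 among the 10% of genes with the highest levels. By this length the 4 genes below the median were NDUFV2, NDUFA13, SDHC and ATP5S. Together the 77 genes held 1.17% of the mock counts (95% Wilson interval 1.16% to 1.18%) and between 1.15% and 1.20% over all libraries, with intervals that cover counting error only. CPM are shares of the poly(A) RNA of a whole culture, so a level per cell and a share of cells cannot be told apart.

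Between complexes, the median level in the mock was 58.1 CPM per kb in complex I, 43.0 in complex II, 117 in complex III, 151 in complex IV and 126 in complex V. The electron entry complexes thus had lower medians than complexes III to V, but the genes within each complex spread more widely than the medians did. In complex V the range ran from 54.4 CPM per kb for ATP5G3, one of the genes for the c subunit of the rotor ring, to 856 for ATP5B, the catalytic beta subunit and the highest of all 77. Complex IV ran from 30.9 for COX7A2L, a factor in respiratory supercomplex assembly, to 491 for COX6B1. In complex III UQCRB had the lowest level, 17.5, and UQCRH, the hinge protein, the highest, 438. Complex II ran from 5.15 for SDHC, a membrane anchor, to 164 for SDHB, the iron-sulfur subunit. Complex I had the widest range, from 1.01 for NDUFV2, an iron-sulfur subunit of the NADH-oxidizing arm, to 330 for NDUFS5. Which transcript sets the length matters here: with each gene's median transcript length the medians were 107, 108, 172, 235 and 242 CPM per kb for complexes I to V, and the lowest genes became SDHD in complex II, UQCRFS1 in complex III, NDUFA4 in complex IV and ATP5E in complex V. The highest gene of complex III became UQCRC2. SDHC went from 5.15 to 152 CPM per kb, above the median of 19.4 over all tested genes by this length, while NDUFA11 (16.3) and NDUFV3 (17.7) came to lie below it with NDUFV2, NDUFA13 and ATP5S.

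**Figure D1:**
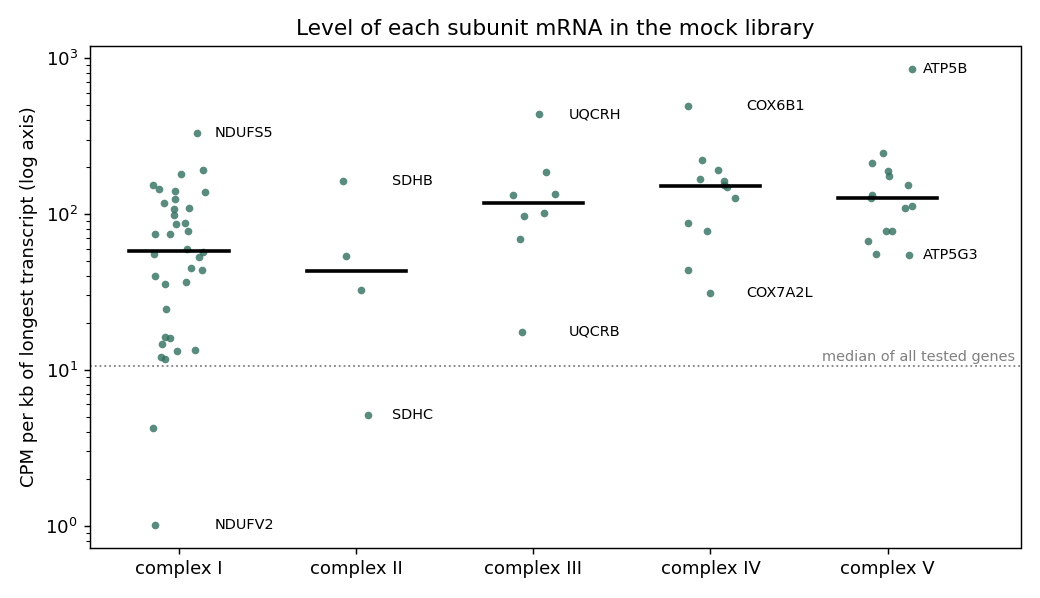
Level of each subunit mRNA in the single mock library, in CPM per kb of its longest transcript on a log axis, by complex; each point is 1 gene, bars are medians and the dotted line is the median of all tested genes (10.6). NDUFV2 (1.01) and SDHC (5.15) lie below that line and ATP5B (856) lies above every other gene.

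NDUFV2 and NDUFA13 had few reads. NDUFV2 was counted with 8 reads in the mock, 9 and 7 after DICER1 siRNA and 10 and 9 after DROSHA siRNA. NDUFA13 was counted with 35 reads in the mock, 31 and 41 with DICER1 siRNA and 49 and 45 with DROSHA siRNA. Their groups cannot be separated at this depth: the 95% interval for NDUFV2 in DICER1 against mock ran from -1.19 to 1.34 on the log2 scale. In GENCODE 29, 41.1% of the exon bases of NDUFV2 and 32.9% of those of NDUFA13 are shared with another gene on the same strand, and the part of this overlap in the low counts was not tested. Among all 77 genes, 41 share exon bases with another gene, 14 of them over more than 30% of their length, and 44 have a named pseudogene, with 17 for COX6C. Levels of such genes are uncertain, because the sources used here do not give how reads of overlapping genes and copies were assigned.

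Several subunits come in paralogous forms that other tissues use. In these cells COX4I2, COX6A2 and COX7B2 had 0 reads in all 5 libraries, which allows at most 0.0733 CPM over the pooled libraries, a limit that covers counting error only. Their partners COX4I1, COX6A1 and COX7B had 10490, 2946 and 7890 reads in total. COX6A2 is the heart and skeletal muscle form, and COX4I2 is best known from lung. The other minor forms were close to 0: COX6B2, the testis form, had 8 reads against 13494 for COX6B1, and COX8C had 3 against 3222 for COX8A. COX7A1, the heart and muscle form, had 13 reads against 6192 for COX7A2, and NDUFA4L2, a hypoxia-induced relative of NDUFA4, had 29 against 3724. Each of these pairs was thus carried almost wholly by its ubiquitous form in the mock and in each knockdown.

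In other sets the reads were shared. COX7A2L, the relative of COX7A2 in supercomplex assembly, held 40.1% of the reads of the COX7A set and COX7A2 59.7%. The share of COX7A2L was 38.6% in the mock, 38.9% and 39.8% with DICER1 siRNA, and 39.8% and 43.6% with DROSHA siRNA, highest in DROSHA siRNA 2. For the c subunit of ATP synthase all 3 genes were used. ATP5G1, ATP5G2 and ATP5G3, which encode the same mature protein with different import sequences, contributed 16.9%, 44.2% and 38.9% of the reads of the set over all libraries. The share of ATP5G1 was 16.9% in the mock, 16.9% and 17.5% with DICER1 siRNA, and 16.0% and 17.7% with DROSHA siRNA. For this gene the mock lay inside or at the edge of each pair. ATP5G2 was at 44.4% in the mock, 44.2% and 44.6% with DICER1 siRNA, and 44.3% and 43.4% with DROSHA siRNA. ATP5G3 was at 38.7% in the mock, 39.0% and 38% with DICER1 siRNA, and 39.7% and 39.0% with DROSHA siRNA. The mix of the c subunit genes thus varied by under 2 percentage points per gene over all libraries.

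**Figure D2:**
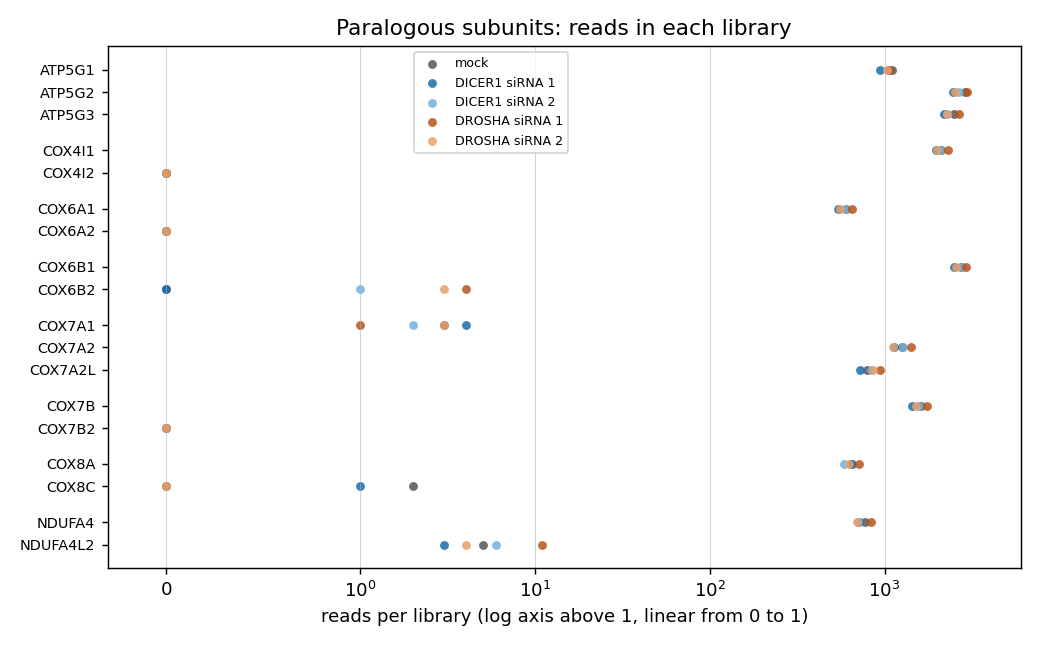
Reads of each paralogous subunit gene in each of the 5 libraries (axis logarithmic above 1 read, linear from 0 to 1); points are single libraries, and points at 0 overlap. All minor forms lie at 0 to 11 reads in every library, while the common forms and the 3 ATP5G genes lie far above.

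After DICER1 knockdown no subunit mRNA passed the test. In edgeR's quasi-likelihood test 0 of 77 genes had an adjusted p under 0.05 and 0 had an unadjusted p under 0.05, and DESeq2 likewise gave 0 and 0. Of all tested genes 0.00817% were called, which is DICER1 itself, and 5.46% had an unadjusted p under 0.05. With the mock and DICER1 libraries fitted alone, the unadjusted count of subunit genes rose above 0 and the adjusted count stayed at 0. The median log2 fold change over the 77 genes was -0.02, against 0.0005 over all tested genes, with 28 above 0 and 49 below. Of all 12234 tested genes 6132 were above 0 and 6102 below. Both DICER1 libraries were above the mock for 16 genes (20.8%) and below it for 36 (46.8%). Among all tested genes the shares were 36.7% and 36.4%. The summed level of the 77 mRNAs was 97.1% and 97.9% of the mock in the 2 libraries.

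Complex V lay lowest against the mock in this comparison. Its median log2 fold change was -0.07 over 15 genes. Of these 13 were below 0, against 6102 of all 12234 tested genes. In both libraries 11 (73.3%) were below the mock, against 36.4% of all tested genes. The summed level of complex V was 95.6% of the mock in each DICER1 library, a difference of a few percent. Complex I had a median of -0.05 over 36 genes, with 20 (55.6%) below the mock in both libraries and 6 (16.7%) above, against 36.4% and 36.7% of all tested genes. Complexes II, III and IV had medians of -0.01, -0.01 and 0.0007. In complex IV 2 of 12 genes, COX6A1 and COX7B, were below the mock in both libraries and 3 (COX4I1, COX5B and COX7A2L) above, shares of 16.7% and 25% to be read against the same background. These medians describe genes that share the same libraries, and genes of 1 complex are not replicates, so no test is attached to the order of the complexes.

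**Figure D3:**
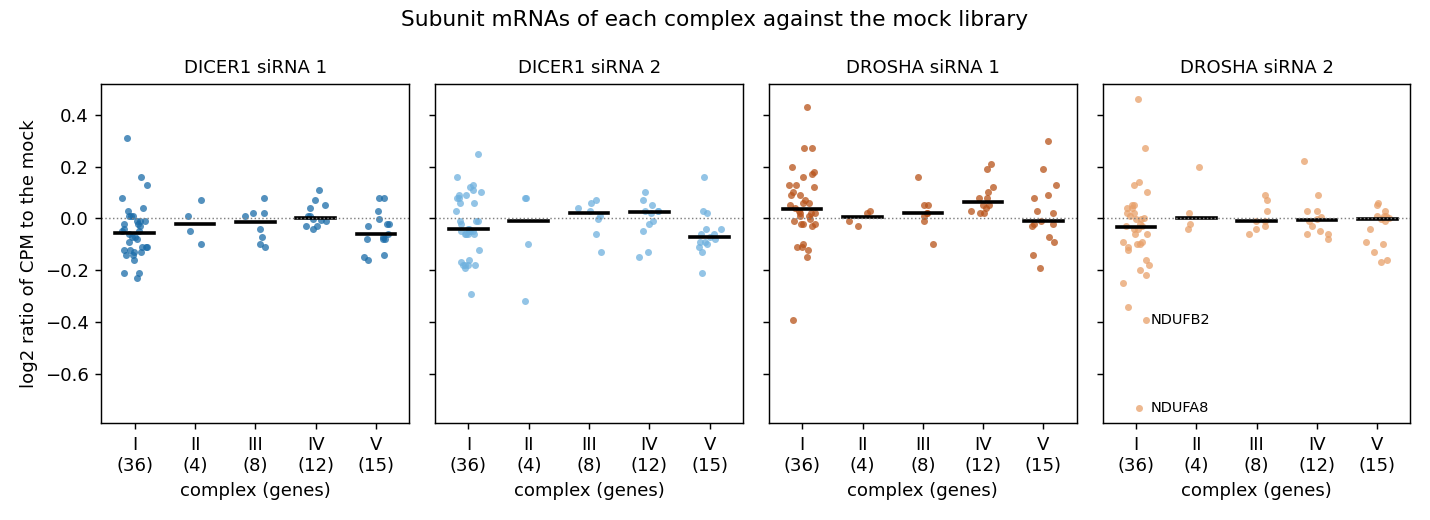
Log2 ratio of CPM in each siRNA library to the mock for the subunit genes of complexes I to V; each point is 1 gene, bars are medians and numbers of genes are in parentheses. In both DICER1 libraries the median of complex V is below 0 (-0.06 and -0.07), and in DROSHA siRNA 2 the complex I genes NDUFA8 (-0.73) and NDUFB2 (-0.39) lie below all other points.

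NDUFB4, an accessory subunit of the membrane arm of complex I, had the smallest p of the 77 genes both here and in DICER1 against DROSHA. Its level was 61.8 CPM in the mock, 53.4 and 50.7 after DICER1 siRNA and 66.0 and 62.7 after DROSHA siRNA. Both DICER1 values were below the other 3 libraries, and both DROSHA values were above the mock. The log2 fold change was -0.25 ± 0.11 (SE) in DICER1 against mock, with adjusted p = 0.865 in edgeR's quasi-likelihood test, so the difference did not hold over all genes. NDUFB4 has 12 named pseudogenes, and how their reads were assigned is not given.

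Motifs of the known regulators were looked for in the 250 bases before each start site in RefSeq (GRCh38.p14), on both strands. Entries were matched for 64 of the 77 genes. A gene was counted once if any of its entries held the motif. The core of the NRF1 motif, GCGCANGCGC, was found in 13 (20.3%), against 12.0% of 10002 tested genes and 6.20% of all 27305 gene symbols with an entry. The ETS core CCGGAAG, the motif family of GABP, was found in 17 (26.6%), against 18.7% of tested genes and 10.2% of all gene symbols. Only SDHD and UQCR11 held both (3.12%, against 2.38% of tested genes). A pair of promoters is printed 5′ to 3′ on the gene's strand, as far as they are free of annotated exon bases, with the motif matches in capitals. The NDUFB4 promoter is shown because of the place of that gene in the comparisons. It holds the NRF1 core 159 and 63 bases before the start, at chr3:120596086-120596308, plus strand. The UQCR11 promoter (a small subunit of complex III) is shown for its ETS cores, which lie 117 and 97 bases before the start on opposite strands, at chr19:1605491-1605712, minus strand; its NRF1 matches lie in or reach into the exon bases left out.
NDUFB4: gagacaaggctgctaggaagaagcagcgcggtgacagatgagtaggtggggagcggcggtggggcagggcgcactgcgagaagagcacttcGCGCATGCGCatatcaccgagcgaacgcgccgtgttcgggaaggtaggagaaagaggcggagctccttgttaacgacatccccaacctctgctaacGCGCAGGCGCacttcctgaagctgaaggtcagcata
UQCR11: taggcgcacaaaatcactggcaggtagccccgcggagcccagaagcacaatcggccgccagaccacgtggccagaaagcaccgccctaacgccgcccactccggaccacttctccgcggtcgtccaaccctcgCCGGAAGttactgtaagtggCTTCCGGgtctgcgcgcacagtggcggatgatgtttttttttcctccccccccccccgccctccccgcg
UQCR11 mRNA stood at 135 CPM in the mock, 132 and 138 with DICER1 siRNA and 137 and 134 with DROSHA siRNA. A match to a motif describes these letters and no binding was measured here.

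In complexes I, II and V the other genes named for DICER1 against mock lay up to 0.20 below or 0.13 above 0. NDUFA1, a small membrane-arm subunit of complex I, was at 138 CPM in the mock and 119 and 121 with DICER1 siRNA. NDUFB11, another membrane-arm subunit, was at 200 CPM in the mock and 223 and 211 with DICER1 siRNA. These genes of 1 arm of complex I thus lay on opposite sides of the mock, by -0.20 ± 0.10 and 0.12 ± 0.08 (log2 fold change ± SE). SDHB was at 189 CPM in the mock and 176 and 151 after DICER1 siRNA, against 185 and 186 with DROSHA siRNA, so its DICER1 values were the lowest of the 5. Its log2 fold change of -0.20 ± 0.11 had an edgeR adjusted p of 0.870. ATP5O, the stalk subunit that confers oligomycin sensitivity, was at 124 CPM in the mock, 112 and 107 with DICER1 siRNA and 118 and 116 with DROSHA siRNA. The log2 fold change of ATP5O was -0.18 ± 0.09 in DICER1 against mock. All 4 siRNA libraries were below the mock, an order that rests on the single mock library. ATP5J2, the f subunit of ATP synthase, lay on the other side, at 93.5 CPM in the mock and 98.7 and 104 with DICER1 siRNA. COX5B, a subunit of complex IV, had the smallest p of its complex with a log2 fold change of 0.07 ± 0.10. In GENCODE 29, ATP5O and ATP5J2 share 69.0% and 30.4% of their exon bases with other genes on the same strand. NDUFA1 and NDUFB11 share 44.5% and 44.9% with a gene on the opposite strand.

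After DROSHA knockdown, too, no subunit mRNA passed the test. In edgeR's test 0 of 77 genes had an adjusted p under 0.05, against 0.00817% of all tested genes, which is DROSHA itself. For 1 gene (NDUFA5) the unadjusted p was under 0.05, against 3.69% of all tested genes. DESeq2 gave 0 at either threshold. The median log2 fold change was -0.0021 over the 77 genes and -0.0049 over all tested genes, with 37 above 0 and 40 below. Of all 12234 tested genes 5955 were above 0 and 6279 below. Without DROSHA siRNA 2 the median over the 77 genes was 0.03, and without siRNA 1 it was -0.02. Both DROSHA libraries were above the mock for 23 genes (29.9%, against 31.5% of all tested genes) and below it for 17 (22.1%, against 32.5%). The summed level was 102% of the mock with siRNA 1 and 98.5% with siRNA 2.

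The complexes were close together in this comparison, with medians of -0.01, -0.0009, 0.0012, 0.02 and -0.01 for complexes I to V. Without DROSHA siRNA 2 they were 0.03, 0.0023, 0.02, 0.07 and -0.01, and without siRNA 1 they were -0.04, -0.0049, -0.02, -0.01 and -0.01. The siRNAs also differed in summed level: complex I was at 102% of the mock with siRNA 1 and 96.3% with siRNA 2, and complex IV at 105% and 99.9%. With DROSHA siRNA 1 all 12 complex IV genes were above the mock, at a median log2 ratio of 0.07. With siRNA 2 there were 5 above and 7 below, at a median of -0.01. Of all 12234 tested genes 6000 were above the mock with siRNA 1 and 6116 with siRNA 2. The library that stood apart is siRNA 2, and without it the DICER1 against DROSHA median of complex IV went from -0.03 to -0.09. COX7A2L was above the mock in both, at 94.3 CPM in the mock, 108 and 110 with DROSHA siRNA and 95.2 and 101 with DICER1 siRNA. Its log2 fold change in DROSHA against mock was 0.21 ± 0.10 with an edgeR adjusted p of 0.978.

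NDUFA5, an accessory subunit of the matrix arm of complex I, was the gene with the smallest unadjusted p after DROSHA knockdown. Its level was 91.6 CPM in the mock, 83.1 and 81.0 after DICER1 siRNA and 69.7 and 72.5 after DROSHA siRNA. The 3 groups did not overlap, with the mock highest and the DROSHA libraries lowest. The log2 fold change was -0.37 ± 0.10 in DROSHA against mock, with adjusted p = 0.978 in edgeR's quasi-likelihood test. It was -0.16 ± 0.10 in DICER1 against mock and 0.21 ± 0.08 in DICER1 against DROSHA (adjusted p = 0.585, edgeR). NDUFA5 has 12 named pseudogenes. ATP5H, the d subunit of the peripheral stalk of ATP synthase, was at 114 CPM in the mock, 99.9 and 102 with DROSHA siRNA and 114 and 111 with DICER1 siRNA, so only its DROSHA values lay apart from the rest. Its log2 fold change in DROSHA against mock was -0.18 ± 0.09 (adjusted p = 0.978, edgeR). SDHD, the other membrane anchor of complex II, was at 46.9 CPM in the mock and at 47.4 and 53.9 with DROSHA siRNA. UQCRQ of complex III was at 157 CPM in the mock and at 176 and 166. Both were above the mock in each library, by 0.11 ± 0.13 and 0.12 ± 0.09.

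The clearest difference between siRNAs against the same target was in 2 complex I genes. NDUFA8, an accessory subunit on the intermembrane space side, was at 63.1 CPM in the mock, 60.2 and 60.5 with DICER1 siRNA, 65.2 with DROSHA siRNA 1 and 38.1 with DROSHA siRNA 2. NDUFB2, an accessory subunit of the membrane arm, was at 94.9 CPM in the mock, 104 in each DICER1 library, 106 with DROSHA siRNA 1 and 72.3 with DROSHA siRNA 2. In both genes 4 libraries lay close together and DROSHA siRNA 2 lay below them. The ratio of siRNA 2 to siRNA 1 was 0.585 for NDUFA8 (95% interval 0.506 to 0.674) and 0.684 for NDUFB2 (0.615 to 0.760), where the intervals cover counting error only. On the log2 scale these ratios are -0.77 and -0.55. The next lowest of the 77 was ATP5SL at -0.28, the median was -0.06 and the interquartile range 0.13, against -0.0009 and 0.29 over all tested genes.

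Because they rest on 1 library, fitted values of these 2 genes depended on it. In DROSHA against mock NDUFA8 had a log2 fold change of -0.28 ± 0.27 with all libraries, 0.05 without DROSHA siRNA 2 and -0.73 without DROSHA siRNA 1, the last with adjusted p = 0.0231 in edgeR's test. In DICER1 against DROSHA it was 0.22 ± 0.23 with all libraries, -0.11 without DROSHA siRNA 2 and 0.66 without DROSHA siRNA 1 (adjusted p = 0.0158, edgeR). NDUFB2 was at 0.22 ± 0.17, -0.02 and 0.52 in the same order (adjusted p = 0.0210 without siRNA 1, edgeR). The calls without siRNA 1 compare the single library DROSHA siRNA 2, assumed to vary like the DICER1 pair, with the rest. Over all genes that setting called 233 in DROSHA against mock and 462 between the knockdowns. NDUFA8 shares no exon bases with another gene in GENCODE 29, while 44.8% of the exon bases of NDUFB2 are shared, mostly with a gene on the opposite strand.

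**Figure D4:**
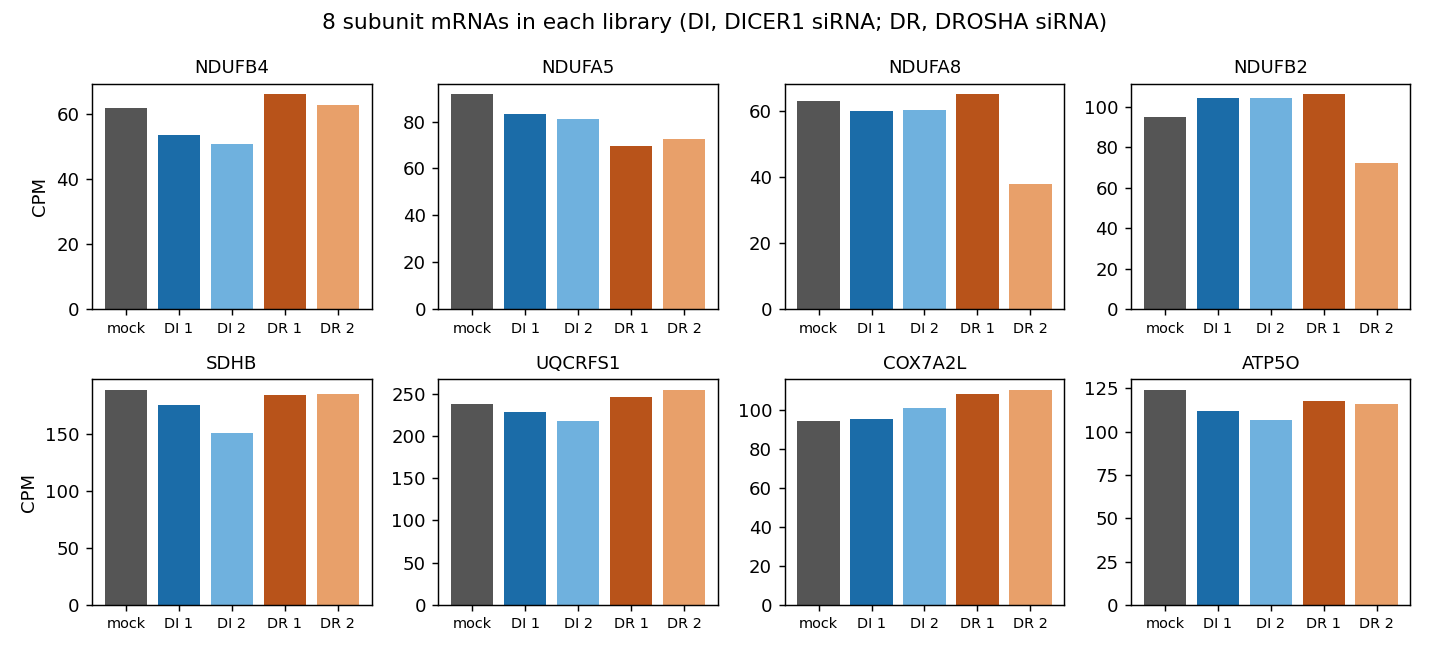
CPM of 8 subunit mRNAs in each of the 5 libraries (bars are single libraries, axes start at 0 and differ between genes). NDUFA8 (38.1) and NDUFB2 (72.3) are lowest in DROSHA siRNA 2 alone, NDUFA5 is lowest in both DROSHA libraries (69.7 and 72.5), and NDUFB4 and SDHB are lowest in both DICER1 libraries.

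The knockdowns were also set against each other, which does not use the mock as a group. In edgeR's test 0 of 77 genes passed in DICER1 against DROSHA, against 0.0163% of all tested genes, which are DICER1 and DROSHA themselves. At an unadjusted p under 0.05 there were 4 of 77 (5.19%), against 8.34% of all tested genes, and DESeq2 gave 0 at either threshold. Of the 77 log2 differences 23 were above 0 and 54 below, against 6246 and 5988 of all 12234 tested genes. The median log2 difference was -0.04 over the 77 genes and 0.0042 over all tested genes. This median rested on single DROSHA libraries: it was -0.08 without DROSHA siRNA 2 and 0.0046 without siRNA 1, so its sign turned. Both DICER1 libraries were above both DROSHA libraries for 7 genes (9.09%, against 20.9% of all tested genes) and below them for 23 (29.9%, against 20% of all tested genes). The medians of complexes I to V were -0.04, -0.07, -0.01, -0.03 and -0.06. Without DROSHA siRNA 2 they were -0.09, -0.02, -0.02, -0.09 and -0.08, and without siRNA 1 they were 0.02, -0.09, 0.01, 0.01 and -0.05, so complexes II and V alone kept their sign in both. In complex IV 10 of 12 genes and in complex V 12 of 15 were below 0, against 5988 of all 12234 tested genes.

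Besides NDUFA5, the 4 genes under an unadjusted p of 0.05 were NDUFB4, UQCRFS1 and ATP5B, all lower with DICER1 siRNA. NDUFB4 had a log2 difference of -0.31 ± 0.09 (adjusted p = 0.504, edgeR). UQCRFS1, the Rieske iron-sulfur protein of complex III, was at 238 CPM in the mock, 228 and 218 with DICER1 siRNA and 246 and 254 with DROSHA siRNA. The difference was -0.17 ± 0.06 (adjusted p = 0.573, edgeR). ATP5B was at 1573 CPM in the mock, 1487 and 1490 with DICER1 siRNA and 1593 and 1577 with DROSHA siRNA, a difference of -0.09 ± 0.04 (adjusted p = 0.590, edgeR). In each of these 3 genes the mock lay between the groups and no group overlapped another. In DROSHA against mock, though, the log2 fold change of each was smaller than its SE. It was 0.06 ± 0.11 for NDUFB4, 0.07 ± 0.08 for UQCRFS1 and 0.01 ± 0.04 for ATP5B. The same order, with the knockdowns on opposite sides of the mock, held for 7 of 77 genes (9.09%), against 9.51% of all tested genes. SDHB (-0.18 ± 0.09) and COX7A2L (-0.15 ± 0.08) had the smallest p of complexes II and IV, neither under an unadjusted p of 0.05.

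The intervals of the fit rest on the spread within the siRNA pairs, drawn toward that of all tested genes. The mock was a single library, so its own spread was not measured. Against the mock the intervals may therefore be too narrow to bound the effect of a knockdown. In each of the 3 comparisons the 95% intervals of 73 of 77 genes stayed within 1.5-fold in either direction. The 4 exceptions were NDUFV2, NDUFA13 and NDUFA8 in all 3, with NDUFB2 in the comparisons of DICER1 and NDUFA5 in DROSHA against mock. The fit shares the spread of a gene over all groups. For NDUFA8 and NDUFB2 the spread lay in the DROSHA pair (65.2 and 38.1 CPM, 106 and 72.3 CPM). Their DICER1 libraries were close, at 60.2 and 60.5 CPM and at 104 CPM in each. Within 1.3-fold lay 58 genes with DICER1 siRNA, 59 with DROSHA siRNA (each against mock) and 61 in DICER1 against DROSHA. The median standard error was 0.10, 0.10 and 0.08 on the log2 scale. The largest fitted change, in either direction, of any of the 77 was 1.19-fold, 1.36-fold (NDUFA13, with few reads) and 1.26-fold. The middle of the subunit genes was narrower than that of all genes, with an interquartile range of 0.11, 0.08 and 0.10 against 0.23, 0.22 and 0.22, but their counts were also higher, at a median of 106 CPM in the mock against 40.4.

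**Figure D5:**
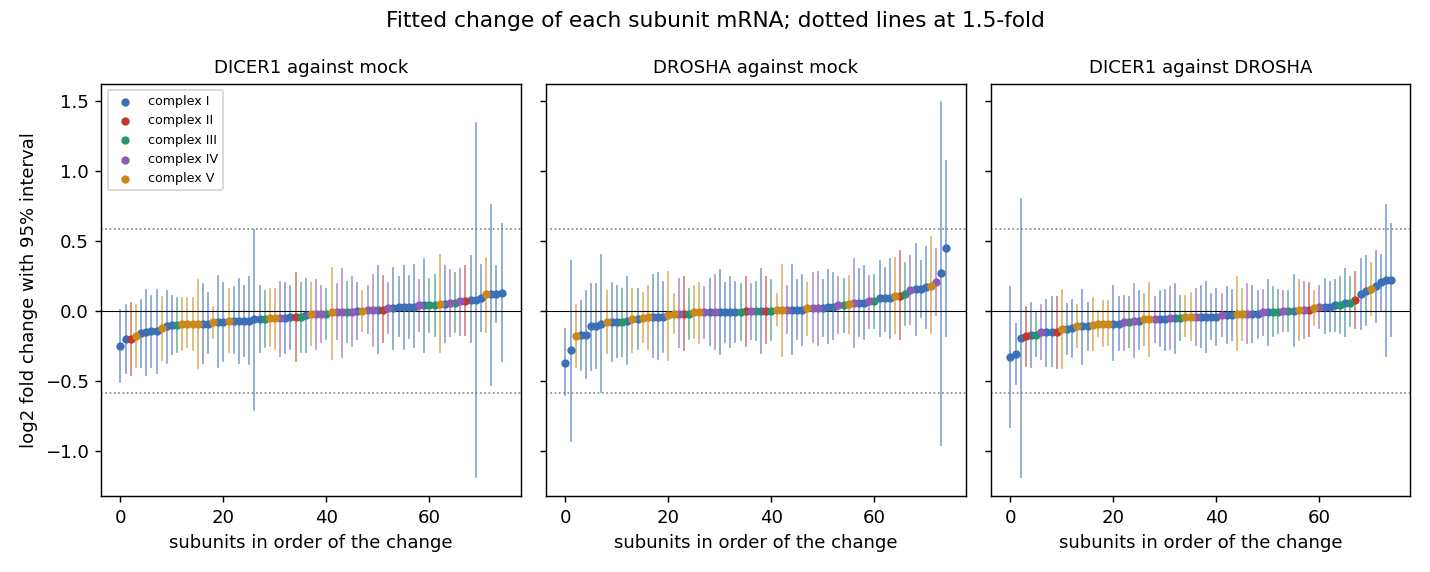
Fitted log2 fold change of each of the 75 subunit genes with its 95% interval, in order of the change, in the 3 comparisons; colours mark the complex and dotted lines 1.5-fold. Nearly all intervals stay between the dotted lines, and the widest interval in each panel is NDUFV2, with 7 to 10 reads per library.

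Genes around the complexes were read from lists. Of subunits and carriers whose symbols the rule does not cover, 6 were tested, with 0 called by edgeR in any comparison and medians of -0.05, -0.01 and -0.04 for the DICER1 and the DROSHA comparison with the mock and for DICER1 against DROSHA. CYCS, cytochrome c, which carries electrons from complex III to complex IV, stood out among them. Its level was 239 CPM in the mock, 170 and 108 with DICER1 siRNA and 230 and 227 with DROSHA siRNA. Both DICER1 libraries were below the other 3, though they also differed from each other. The log2 fold change was -0.79 ± 0.22 in DICER1 against mock (adjusted p = 0.865, edgeR) and -0.72 ± 0.19 in DICER1 against DROSHA (adjusted p = 0.474, edgeR), so it did not pass. CYC1, cytochrome c1, the heme subunit of complex III, had a log2 fold change of -0.09 ± 0.09 in DICER1 against mock.

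The other lists also had 0 genes called by edgeR. Assembly factors of complexes I to V (34 tested) had medians of -0.04, 0.02 and -0.0017 in the same order of comparisons. Regulators of nuclear mitochondrial genes (22 tested) had medians of 0.01, 0.0009 and -0.05. Among them TFAM, which packages and transcribes mitochondrial DNA, was at 306 CPM in the mock, 259 and 231 with DICER1 siRNA and 248 and 282 with DROSHA siRNA, with a log2 fold change of -0.32 ± 0.11 in DICER1 against mock (adjusted p = 0.865, edgeR). All 4 siRNA libraries were below the mock for TFAM, an order that rests on the single mock library. Mitochondrial ribosomal proteins (74 tested) had medians of -0.04, 0.01 and -0.06, with 37 below the mock in both DICER1 libraries and 17 above, against 36.4% and 36.7% of all tested genes. The medians of this list and of complexes I and V were all a few hundredths below 0 in DICER1 against mock. Of the 13 mitochondrially encoded subunits 0 were found among the counted genes under the symbols searched, so they were not analysed here.

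Upstream and alternative energy pathways were close to the mock as well. Genes of the tricarboxylic acid cycle and pyruvate dehydrogenase (19 tested) had medians of -0.05, -0.03 and -0.02, with 13 of 19 below the mock in both DICER1 libraries and 1 above, against 36.4% and 36.7% of all tested genes. DLAT, the acetyltransferase of pyruvate dehydrogenase, was at 139 CPM in the mock, 104 and 108 with DICER1 siRNA and 135 and 140 with DROSHA siRNA. Its DICER1 values lay below the other 3 libraries, by -0.40 ± 0.09 against the mock (adjusted p = 0.865, edgeR). Glycolysis genes (17 tested) had medians of -0.04, -0.04 and -0.01. LDHA, which makes lactate from pyruvate, was at 694 CPM in the mock, 606 and 580 with DICER1 siRNA and 674 and 620 with DROSHA siRNA, a log2 fold change of -0.23 ± 0.07 in DICER1 against mock (adjusted p = 0.865, edgeR).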

How the data were processed

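The authors deposited raw counts of reads as 1 table with a row for each gene symbol; the values are whole numbers and not normalized. The submitters' processing notes name CASAVA 1.8.2, STAR, HTSeq, edgeR and the build hg19; the role of each tool and the strand setting are not given in the sources used here. Column names gave the sample of each column, with 0 columns unused. The filter was 1 CPM or more in 2 or more libraries. The 5 libraries were scaled by TMM and fitted together in edgeR 4.0.16 under R 4.3.3, and the model held the group alone. Quasi-likelihood F tests were adjusted by Benjamini-Hochberg over 12234 genes and called under 0.05, with DESeq2 1.42.0 as an alternative. With 1 mock library, the 2 residual degrees of freedom come from the siRNA pairs, whose spread stands in for that of the mock. Printed CPM use TMM-scaled library sizes. Each standard error is the size of the log2 fold change over the root of its F value. The 95% intervals use the total degrees of freedom of the fit (median 6.66). These add degrees borrowed across all tested genes to the 2 residual ones. The steps were tested on simulated data.

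GENCODE 29 (GRCh38) gave transcript lengths for 99.6% of tested genes and exon overlaps for the genes taken by symbol, and RefSeq gave promoters. The files use hg19, so no position is taken from them. Members and lists were chosen with earlier results of these data known. Named were DICER1 and DROSHA. In each comparison the member of each complex with the smallest p was named, with the 3 highest and 3 lowest fold changes. Also named were the highest and lowest level per length in each complex, the paralog sets, and at most 2 genes per list with the smallest p. UQCR11 and the values of ATP5SL were added after their values were seen.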

Additional observations from a re-analysis of the deposited data

Results flagged for a closer look

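In 7 of 77 genes (9.09%), against 9.51% of all tested genes, the knockdowns lay on opposite sides of the mock in every library. For 3 of these the unadjusted p between the knockdowns was also under 0.05 in edgeR's test. They were NDUFB4 with a log2 difference of -0.31 between DICER1 and DROSHA siRNA, UQCRFS1 with -0.17 and ATP5B with -0.09. The difference was tested directly in edgeR's DICER1 against DROSHA comparison, and none of the 3 passed over all genes (adjusted p = 0.504, 0.573 and 0.590). They were picked out for this order and an unadjusted p under 0.05, and both sides share the single mock library, so 1 mock value between the groups sets the order in each gene.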

How the results depend on the processing

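With a single mock and 2 residual degrees of freedom, counts of calls moved with the settings. Over all genes, DICER1 against mock called 1, but 5 with DESeq2, 3 with no CPM filter, 7 with only the groups compared and 0 to 7 leaving out 1 library. DROSHA against mock called 1, and 1 to 233 leaving out 1 library (233 without DROSHA siRNA 1, 20 without siRNA 2). DICER1 against DROSHA called 2, but 24 with DESeq2, 12 with no filter and 1 to 462 leaving out 1 library. Subunits called ranged from 0 to 1 lower in DROSHA against mock (NDUFA8) and 0 to 2 higher in DICER1 against DROSHA (NDUFA8 and NDUFB2), each nonzero value without DROSHA siRNA 1. In every other setting 0 were called.

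Leaving out 1 library, medians in DICER1 against mock ranged from -0.04 to -0.02 (all members), -0.02 to 0.02 (complex III), -0.0025 to 0.02 (IV) and -0.08 to -0.06 (V). In DROSHA against mock they ranged from -0.0049 to 0.0023 (II) and stayed at -0.01 (V), and in DICER1 against DROSHA from -0.08 to 0.0046 (all members), -0.09 to 0.02 (I), -0.09 to 0.01 (IV) and -0.08 to -0.05 (V). With a length and GC trend removed, DICER1 against mock gave -0.03 (I), 0.0048 (II), 0.03 (IV) and -0.05 (V), and DROSHA against mock gave 0.01 (II), which was -0.01 with no filter. Median transcript length gave levels of 151 CPM per kb over all members and 107, 108, 172, 235 and 242 for complexes I to V. Of 226 values of named genes under alternatives, 219 kept direction and side of the threshold. Leaving out 1 library, NDUFA8 ranged from -0.73 to 0.05 in DROSHA against mock. In DICER1 against DROSHA it ranged from -0.11 to 0.66 and NDUFB2 from -0.02 to 0.52, with the sign reversed without DROSHA siRNA 2 in all 3 cases. NDUFV2 ranged from -0.44 to 0.04 there, reversed without DICER1 siRNA 2. The cause was not tested. Requiring 1 CPM in all 5 libraries left 76 members, without NDUFV2.

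The siRNA numbers name different siRNAs and do not pair the libraries (r = 0.024 across 12234 genes between the siRNA 1 minus siRNA 2 differences). With the number as a replicate block, DICER1 against DROSHA called 3 genes, none of them a subunit, and the median over all members was -0.04.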
